A study of Mus musculus with 10 samples.

Results

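Genes of fibroblast growth factor (FGF) signalling were followed in maps of OTX2 binding from mouse epiblast stem cells (EpiSCs) and definitive endoderm (DE). They were the ligands Fgf4, Fgf5 and Fgf8, the receptors Fgfr1 and Fgfr2, the ERK feedback inhibitors Spry2, Spry4, Dusp4 and Dusp6, and the ETS factor Etv5. They make up 10 of the 21887 protein-coding genes with a position in the RefSeq table of GRCm38.p6, the assembly behind mm10. The genes were chosen by name and not by a peak value, but with earlier results of these data known, so their comparison with all protein-coding genes is a description. A peak was counted at a gene when its centre lay within 50 kb of either gene end or inside the gene.

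The maps came from CUT&RUN, in which an antibody tethers a nuclease to its target so that the DNA around it is cut out and sequenced. OTX2, a homeodomain transcription factor, carried an HA tag in the mouse line 7H OTX2-dTAG-EGFP (strain BL6/129 hybrid), and 500000 cells went into each sample. EpiSCs (2 HA samples) grew in N2B27 supplemented with Activin A (20 ng/ml), FGF2 (12.5 ng/ml) and NVP (175 nM). DE (2 HA samples) was derived from EpiSCs in CDM. The first 16 h were in Activin A at 40 ng/ml with CHIR at 3 µM, the last 24 h in Activin A at 100 ng/ml with LDN at 100 nM, and live cells were sorted with DAPI. The labels list FGF2 for the EpiSC medium only. Both states came from the same tagged line, and the lists hold no expression values, so the cell types could not be checked against marker genes. The authors deposited 1 pooled HA peak list per state, with 6319 peaks for EpiSC and 42711 for DE. Counts, widths and sharing below therefore have no replicate spread, and no test between the states was possible. Read depth is unknown, so a longer list and more binding in DE cannot be told apart.

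FGF ligands bind receptor tyrosine kinases, which signal through RAS, RAF and MEK to the kinase ERK. Active ERK switches on transcription factors of the ETS family and, with them, its own inhibitors: Sprouty proteins act on the receptor and RAS side, and dual-specificity phosphatases remove the activating phosphates from ERK. EpiSCs depend on FGF and Activin signals for self-renewal, and FGF signalling is also needed as cells leave the epiblast through the primitive streak.

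Among the start regions of these genes, those of Dusp6, Etv5 and Fgf5 lay at least in part under an OTX2-HA peak, so their sequences are shown. RefSeq start regions of 300 bases, from 250 before to 50 after the transcript start, were at hand for 6 of the 10 genes (Fgf4, Fgf5, Fgfr2, Spry2, Dusp6 and Etv5). Capitals mark the bases under a peak, in both states for Dusp6 and Etv5 and in DE for Fgf5. Each sequence is written 5′ to 3′ on the strand of the gene, and the positions are those of GRCm38.p6.
Dusp6 at chr10:99262981-99263280, plus strand: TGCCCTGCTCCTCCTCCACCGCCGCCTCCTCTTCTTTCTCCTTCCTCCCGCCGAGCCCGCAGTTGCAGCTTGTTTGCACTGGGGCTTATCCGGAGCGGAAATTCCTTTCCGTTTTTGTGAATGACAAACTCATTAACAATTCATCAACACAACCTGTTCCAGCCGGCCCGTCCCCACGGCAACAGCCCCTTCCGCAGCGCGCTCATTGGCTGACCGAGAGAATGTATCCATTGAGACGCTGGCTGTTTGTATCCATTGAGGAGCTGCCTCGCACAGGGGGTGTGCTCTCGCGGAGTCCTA
Etv5 at chr16:22439521-22439820, minus strand: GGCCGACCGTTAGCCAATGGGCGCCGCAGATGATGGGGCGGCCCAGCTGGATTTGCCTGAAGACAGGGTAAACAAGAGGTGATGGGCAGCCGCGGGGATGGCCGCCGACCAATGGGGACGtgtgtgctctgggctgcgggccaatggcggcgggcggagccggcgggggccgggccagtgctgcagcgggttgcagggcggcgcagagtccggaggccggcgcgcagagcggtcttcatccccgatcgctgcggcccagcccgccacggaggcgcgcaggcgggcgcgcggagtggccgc
Fgf5 at chr5:98253934-98254233, plus strand: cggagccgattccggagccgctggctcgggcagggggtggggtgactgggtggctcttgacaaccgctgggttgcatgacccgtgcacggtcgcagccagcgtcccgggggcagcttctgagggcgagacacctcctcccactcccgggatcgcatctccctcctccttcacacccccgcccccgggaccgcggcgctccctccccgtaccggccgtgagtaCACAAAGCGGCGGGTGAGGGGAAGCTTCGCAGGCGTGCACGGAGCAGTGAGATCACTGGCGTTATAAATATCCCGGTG

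The Dusp6 start region was covered over all 300 bases in both states. At Etv5 the EpiSC peak covered the 120 bases farthest upstream and the DE peak 142, and the transcript start itself was outside both peaks. At Fgf5 a DE peak covered 78 bases that include the transcript start, and no EpiSC peak reached the region. The start regions of Fgf4, Fgfr2 and Spry2 and of the other listed Etv5 start lay under no peak of either list. Over 21263 start regions of protein-coding genes, 8.77% were overlapped by an EpiSC peak and 24.7% by a DE peak. Of the regions under an EpiSC peak, 96.7% were also under a DE peak, as at Dusp6 and Etv5.

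The letters TAATCC, the core of the site that OTX2 is known for, were searched on both strands. They were in none of the 7 start regions of these 6 genes, and in 6.42% of all start regions of protein-coding genes. The shorter homeodomain core TAAT, added after the result for TAATCC was known, was found 1 time in the Dusp6 region and 3 times in the Fgfr2 region on either strand. It was in 51.8% of all such regions. The share of G and C in the regions under a peak was 57.3% at Dusp6, 68.3% at Fgf5 and 74.0% at Etv5. In those under no peak it was 69.7% at Fgf4, 62.7% at Spry2, 60% at the other Etv5 start and 43.7% at Fgfr2. The ranges overlap, and the median over protein-coding genes was 56.3%.

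All 10 genes had at least 1 EpiSC peak and at least 1 DE peak within 50 kb. Over all protein-coding genes, 40.8% had an EpiSC peak and 82.8% had a DE peak at that distance. The EpiSC list gave 22 peaks at the 10 genes, and the DE list gave 77. Per gene the median was 2 EpiSC peaks (range 1 to 4) and 7 DE peaks (range 2 to 16), against medians of 0 and 3 over protein-coding genes. Their windows were of ordinary size, with a median of 113.7 kb against 117.2 kb. Counted per 100 kb of window, the median density was 1.89 EpiSC and 5.86 DE peaks at the 10 genes, against 0 and 2.23.

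Fgfr2 held the most DE peaks, with 16, followed by Fgf8 with 11 and by Fgfr1 and Spry2 with 10 each. Fgf5 had 8, Dusp4 and Etv5 had 6 each, Dusp6 had 5, Spry4 had 3 and Fgf4 had 2. The order in EpiSC was different: Fgf5 and Spry2 had 4 peaks each, Spry4 and Etv5 had 3 each, Fgf8 and Dusp6 had 2 each, and Fgf4, Fgfr1, Fgfr2 and Dusp4 had 1 each. By number, both receptors were among the genes with the fewest EpiSC peaks and among those with the most DE peaks, but their windows were long, at 157.0 kb for Fgfr1 and 204.4 kb for Fgfr2. Per 100 kb of window, DE density was highest at Fgf8 (10.3 peaks) and Spry2 (9.54), followed by Fgfr2 (7.83), Fgf5 (6.51) and Fgfr1 (6.37). These counts depended on how peaks were counted. At Fgfr1 the DE count fell from 10 to 3 within 20 kb or among peaks at least 150 bp wide, to 2 by the deposited nearest gene, and to 0 among the 6319 widest DE peaks, where the EpiSC list had 1 more. Under the same 4 settings Fgfr2 fell from 16 to 11, 12, 15 and 2. Spry2 went from 10 to 6, 6, 10 and 0, the last with 4 more peaks in EpiSC. Fgf8 went from 11 to 10, 7, 9 and 3. In EpiSC the receptors had the lowest densities of the 10, with 0.64 at Fgfr1 and 0.49 at Fgfr2. As many DE peaks as at Fgfr2 were found at 0.850% of protein-coding genes, and as high a DE density at 4.57%. As many EpiSC peaks as at Fgf5 and Spry2 were found at 5.75%, and as high an EpiSC density at 4.70% and 3.49%. Since no count has a replicate error, the order of genes with close counts is not established.

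**Figure D1:**
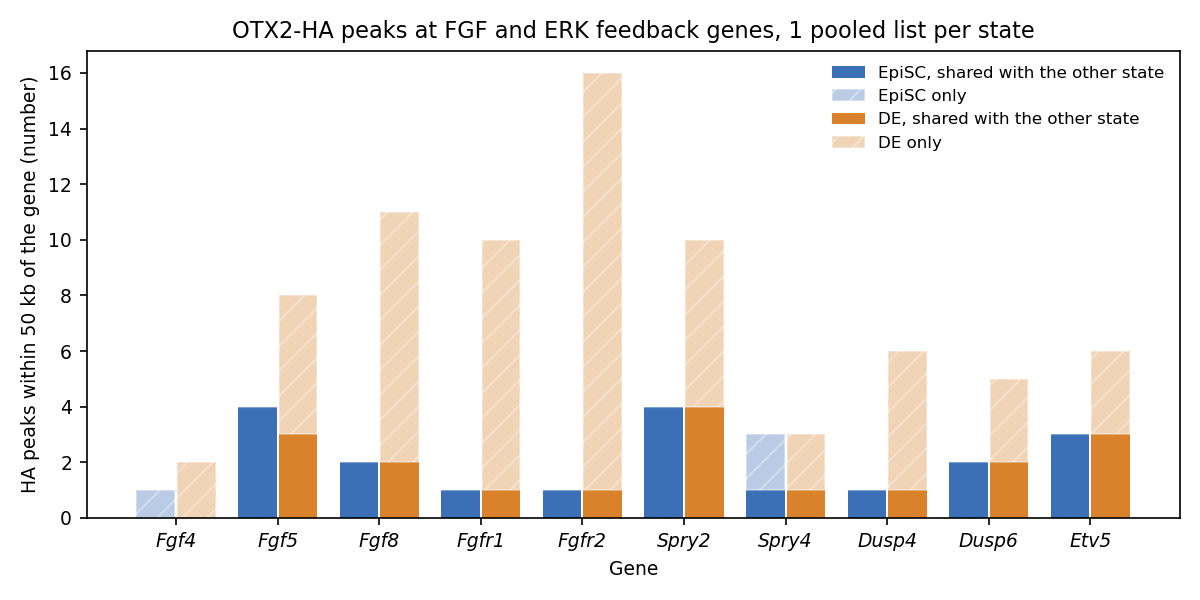
Number of OTX2-HA peaks with a centre within 50 kb of each gene, in the pooled EpiSC list (blue) and the pooled DE list (orange), with solid bars for peaks that overlap a peak of the other state and hatched bars for the rest. EpiSC bars are solid at every gene but Fgf4 and Spry4, and most of the height of the DE bars is hatched.

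At 9 of the 10 genes the DE list had more peaks than the EpiSC list, and at Spry4 both had 3. The DE list has more peaks at 79.2% of protein-coding genes, so a majority in this direction is near the background. The sum over the 10 genes was 3.5 times as high in DE as in EpiSC, compared with 6.76 times for the whole lists and 4.51 times when peaks within 50 kb were summed over all protein-coding genes. An equal, nonzero number in both states, as at Spry4, occurred at 2.91% of protein-coding genes. The tie at Spry4 did not hold under most other settings, where the difference, DE minus EpiSC, was between -1 and 3. When only the 6319 widest DE peaks were kept, 5 genes had more DE than EpiSC peaks (Fgf5, Fgf8, Fgfr2, Dusp4 and Dusp6). The share of all protein-coding genes under that limit is not given here, and the 79.2% above is for the full lists.

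**Figure D2:**
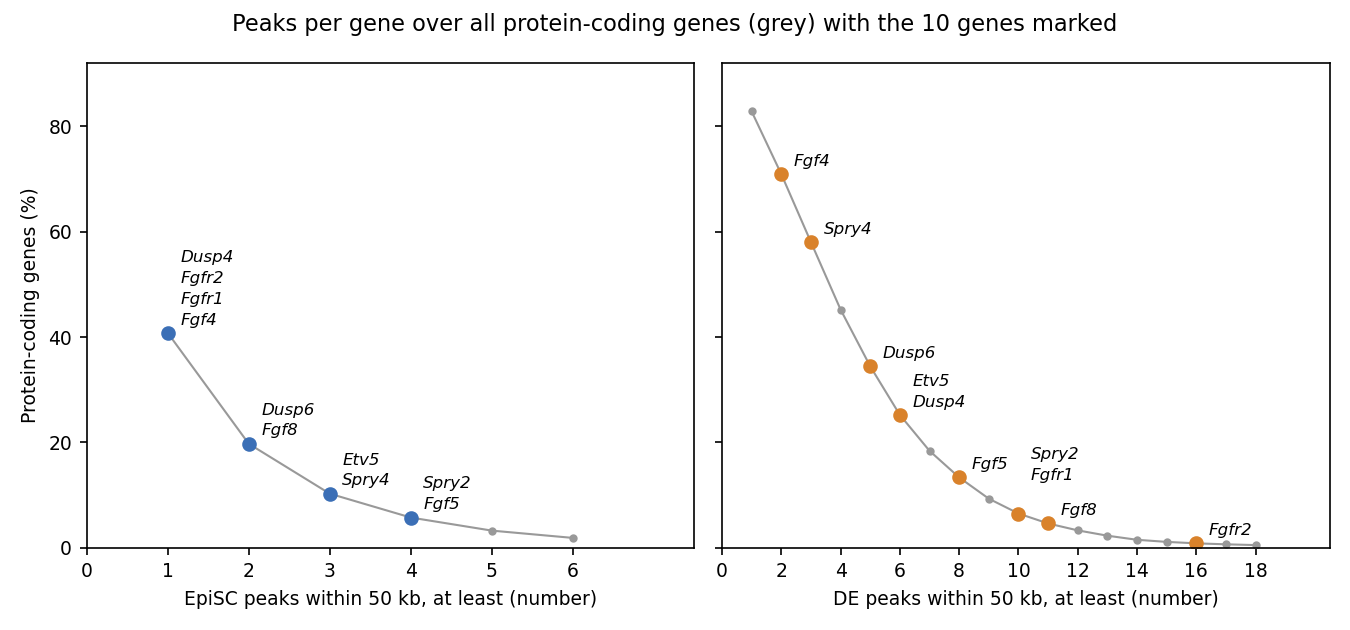
Share of all protein-coding genes (vertical axis, %) with at least a given number of peaks within 50 kb (horizontal axis), for EpiSC on the left and DE on the right, with each of the 10 genes marked at its own count. At least 2 EpiSC peaks were found at 6 of the 10 genes and at 19.7% of protein-coding genes, and at least 5 DE peaks at 8 of the 10 and at 34.4%.

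Most EpiSC peaks at these genes had a DE counterpart. With a minimum overlap of 1 bp, 19 of the 22 met a peak of the DE list (86.4%, with a 95% Wilson interval of 66.7 to 95.3%), compared with 78.8% of the whole EpiSC list. Of the 77 DE peaks, 18 overlapped an EpiSC peak (23.4%, 15.3 to 34.0%), compared with 11.7% of the whole DE list. When only the 6319 widest DE peaks were kept, 54.5% of the EpiSC peaks (34.7 to 73.1%) and 57.9% of the DE peaks (36.3 to 76.9%) were shared. The shares over all protein-coding genes under that limit are not given here, so these values have no background. In the full lists, counted as pairs of a gene and a peak within 50 kb, 83.1% of EpiSC and 18.4% of DE pairs over all protein-coding genes were shared. These intervals reflect counting error alone and treat neighbouring peaks as independent, which they are not. In the full lists, both shares at the 10 genes have intervals that hold the value over all such pairs.

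At 8 genes every EpiSC peak was shared. The same held for 73.7% of the protein-coding genes that had an EpiSC peak. The exceptions were Fgf4, where no peak was shared, and Spry4, where 1 of 3 was. At least 1 EpiSC peak was thus shared at 9 of the 10 genes, and at 8113 of the 8929 protein-coding genes that had an EpiSC peak. None was shared at the other 9.14% of those 8929 genes, so 9 of 10 is near the background. Over all protein-coding genes, with or without an EpiSC peak, 37.1% had a shared one.

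**Figure D3:**
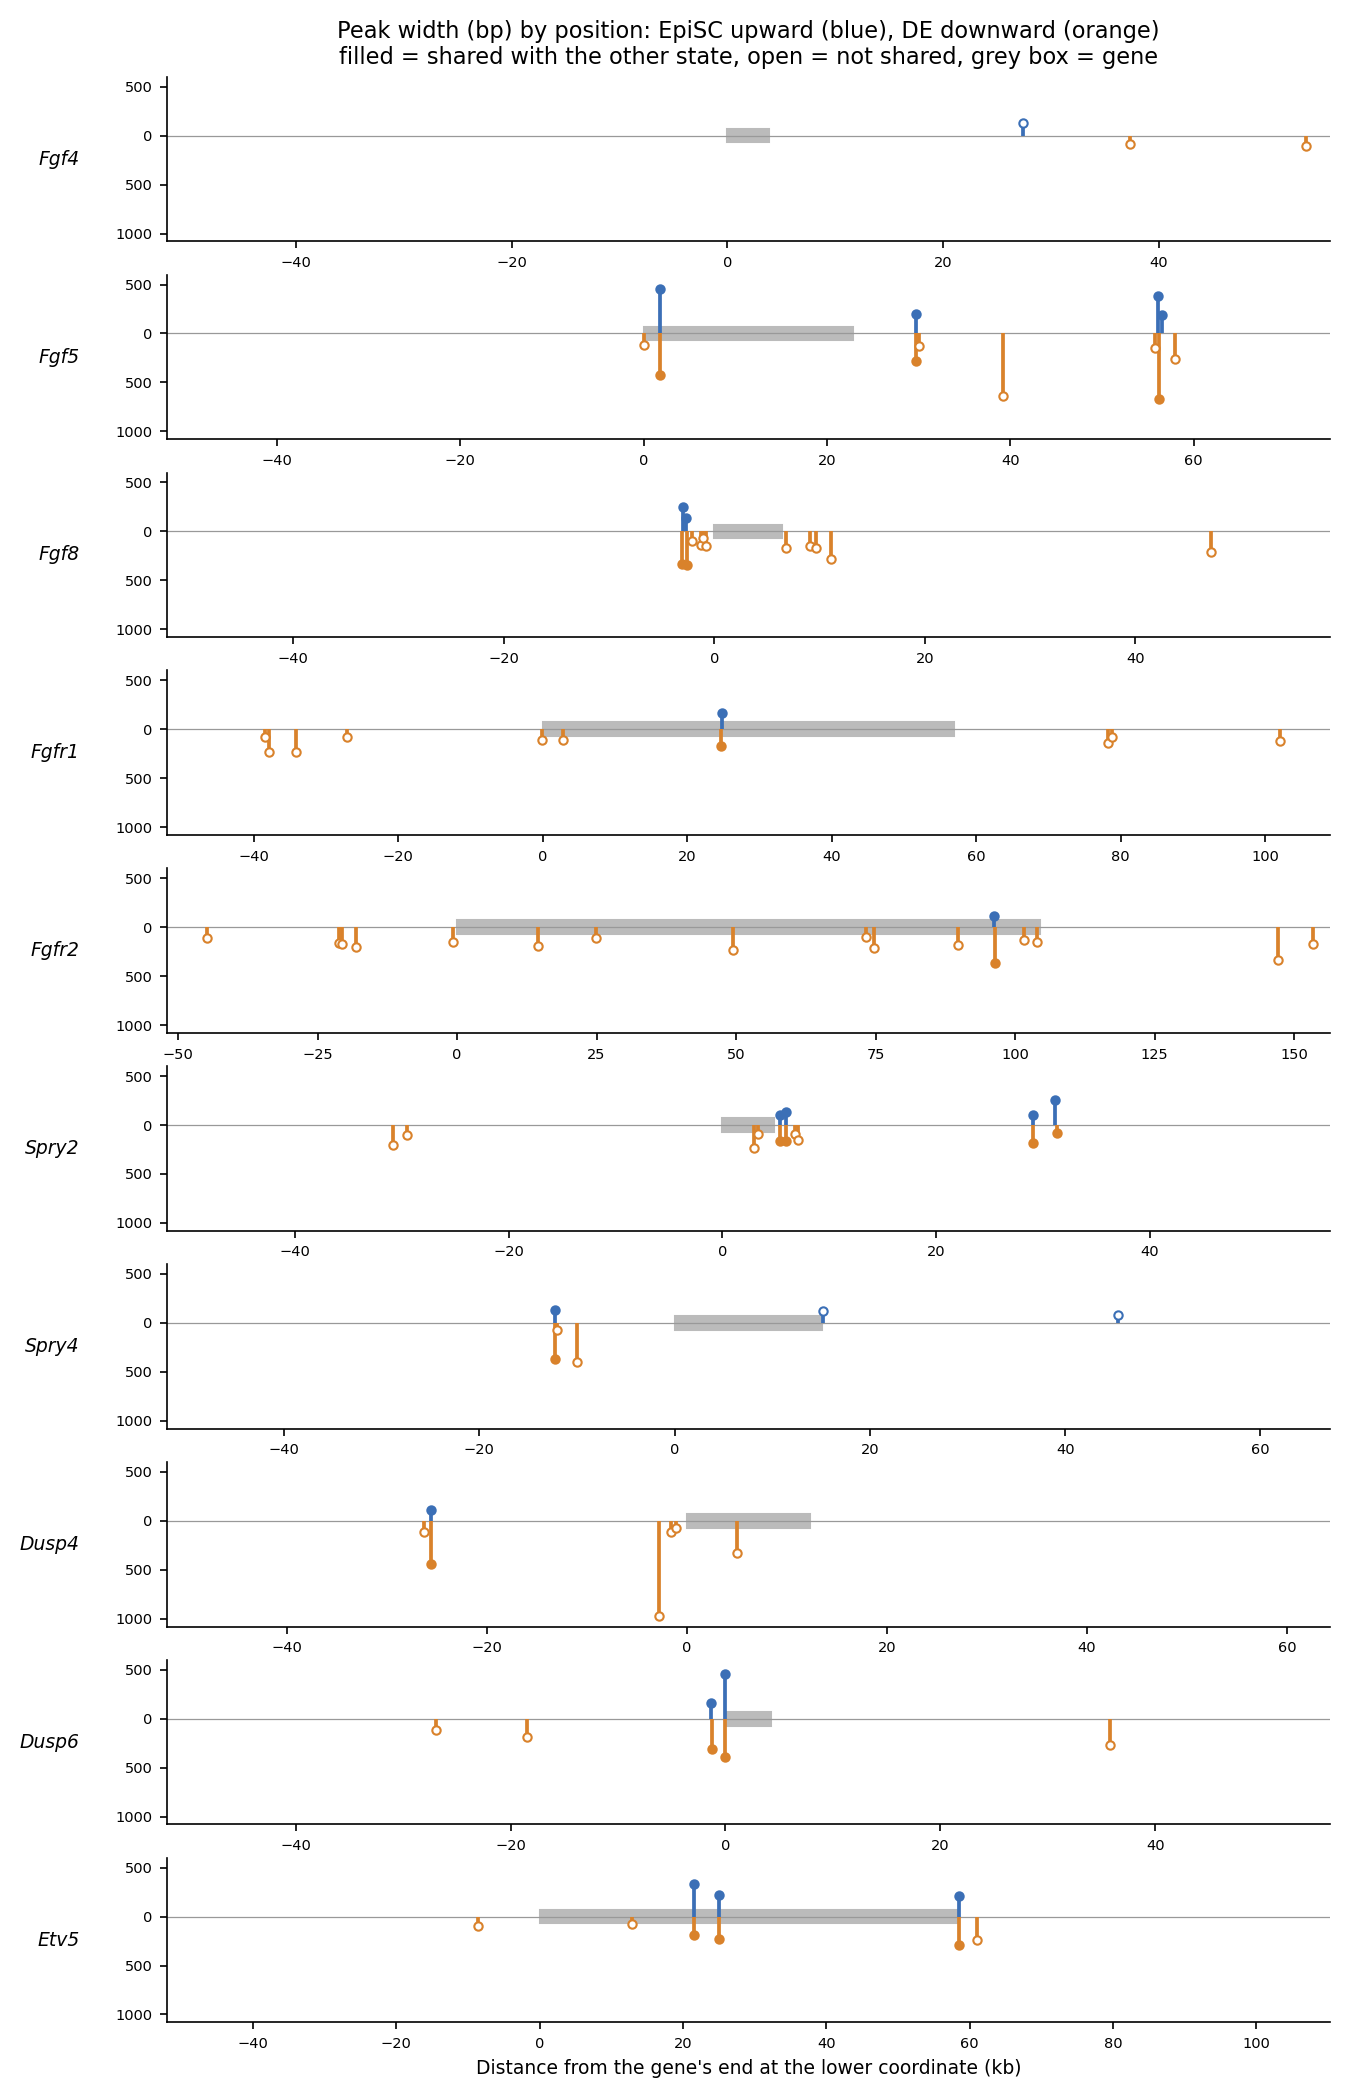
Position and width of every OTX2-HA peak within 50 kb of the 10 genes, drawn upward for EpiSC and downward for DE, with peak width in bp on the vertical axis and distance from the lower end of the gene in kb on the horizontal axis (the grey box is the gene, and filled circles are shared peaks). Inside the gene or within 5 kb of it lie 10 of 11 DE peaks of Fgf8, 5 of 6 of Etv5, 4 of 6 of Dusp4, 10 of 16 of Fgfr2 and 6 of 10 of Spry2, and so do 3 of 10 of Fgfr1, 2 of 5 of Dusp6, 2 of 8 of Fgf5, 0 of 3 of Spry4 and 0 of 2 of Fgf4.

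Fgf4, the FGF of the inner cell mass and early epiblast, lies on chromosome 7 from 144861386 to 144865245. Its single EpiSC peak, 126 bp wide at 144888714 to 144888839, was 23531 bp from the gene and had no DE counterpart. The DE peaks were 83 and 108 bp wide and lay 33495 and 49837 bp away. All 3 peaks were closer to another gene: the EpiSC peak was 7755 bp from Fgf15, a DE peak lay inside Fgf15, and the other was 17 bp from LTO1. The deposited table names Fgf4 for none of them. Fgf4 was thus the gene with the fewest DE peaks, and none of its peaks was nearest to it.

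Fgf5, a ligand that marks the primed epiblast, lies on chromosome 5 from 98254184 to 98277033. Its EpiSC peaks were found at 98255780 to 98256237 inside the gene (458 bp wide), at 98283815 to 98284013 (199 bp), and as a pair at 98310119 to 98310503 (385 bp) and 98310593 to 98310783 (191 bp). The peak inside the gene was 1824 bp past the transcript start, and the others were 6881, 33278 and 33655 bp beyond the gene's higher end. All 4 were shared. The DE peak inside the gene was about as wide as its EpiSC counterpart (428 bp), while 1 DE peak of 672 bp spanned the distal pair.

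Another 5 DE peaks at Fgf5 had no EpiSC counterpart. They included the 119 bp peak at the transcript start (98254156 to 98254274) and a 642 bp peak at 98293106 to 98293747, 16393 bp beyond the gene. Only 0.276% of the DE list was as wide as that peak. The others were 126, 145 and 260 bp wide and lay next to the shared peaks, at 7219, 32897 and 35144 bp from the gene. The DE-only peaks at the transcript start and at 16393 bp were thus those farthest from any EpiSC peak, at 1505 and 9092 bp. The peaks more than 30 kb away were closer to Cfap299 than to Fgf5.

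Fgf8, a ligand of the primitive streak that is needed for cells to move away from it, lies on chromosome 19 from 45736491 to 45742941. Both EpiSC peaks were below the lower end of the gene, at 45733352 to 45733603 (252 bp wide) and 45733760 to 45733893 (134 bp), 3013 and 2664 bp from it. Both were shared with DE peaks that were wider, at 335 and 344 bp. In DE, 4 more peaks of 72 to 149 bp filled the interval up to the gene, which made a run of 6 peaks in 2503 bp. On the other side a run of 4 DE-only peaks of 153 to 286 bp began 312 bp from the gene, and 3 of these were closer to Npm3. The remaining DE peak lay 40699 bp away inside Oga. None of the 11 DE peaks lay inside Fgf8 itself.

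Fgfr1, the main FGF receptor of the epiblast, lies on chromosome 8 from 25518759 to 25575718. It had 1 EpiSC peak, inside the gene at 25543533 to 25543694 (162 bp wide), which shared 85 bp with a DE peak of 172 bp. A DE-only peak of 114 bp straddled the lower end of the gene, with its centre 51 bp outside, and another of 106 bp lay inside. A further 4 DE-only peaks, 78 to 229 bp wide, were 27065 to 38347 bp below the gene, and 3 lay above it within Letm2 or Nsd3. The widest DE peak at Fgfr1 was 229 bp, and 20.5% of the DE list was at least as wide.

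Fgfr2, a receptor with splice forms for epithelial and mesenchymal ligands, lies on chromosome 7 from 130162451 to 130266808 and is transcribed from the higher end. Its single EpiSC peak was 109 bp wide, at 130258688 to 130258796, 8066 bp past the transcript start. The DE peak at the same place was 362 bp wide and was the widest at Fgfr2. The other 15 DE peaks were unshared, and 8 of them lay inside the gene. They reached from 48920 bp before the transcript start to 44834 bp beyond the far end of the gene, with widths of 105 to 336 bp. The DE-only peak closest to the transcript start lay 405 bp past it. No other protein-coding gene lies within 50 kb of Fgfr2, and all 16 DE peaks were nearest to it.

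Spry2, a Sprouty inhibitor of receptor signalling, lies on chromosome 14 from 105891947 to 105896819, with its transcript start at the higher end. Its EpiSC peaks formed 2 pairs before the start. The near pair was 551 and 1119 bp upstream (98 and 128 bp wide), and the far pair was 24229 and 26276 bp upstream (99 and 251 bp wide). DE peaks met all 4, with widths of 160, 164, 183 and 83 bp. The overlap at the farthest peak was only 1 bp, where the EpiSC peak at 105922970 to 105923220 and the DE peak at 105923220 to 105923302 met end to end. Of the 6 DE-only peaks, 4 extended the near pair to a run of 6 peaks in 4245 bp across the transcript start, and 2 lay 29535 and 30856 bp beyond the other end of the gene.

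Spry4, the other Sprouty gene studied, lies on chromosome 18 from 38586247 to 38601347 and was the only gene of the 10 with an EpiSC-only peak next to its end. That peak, 125 bp wide at 38601380 to 38601504, was 95 bp above the gene and 175 bp from Arhgap26. The deposited table names Arhgap26 for it. The other EpiSC-only peak of 83 bp lay 30350 bp above Spry4, inside Arhgap26. In DE the nearest peak on that side was 61479 bp away and was not counted. All 3 DE peaks lay below the gene: a 370 bp peak 12279 bp away over the shared EpiSC peak of 136 bp, and DE-only peaks of 72 and 401 bp at 11993 and 9958 bp. Over all protein-coding genes, 88.0% of the EpiSC peaks that lay outside the gene and up to 5 kb from it were shared.

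Dusp4, a nuclear ERK phosphatase, lies on chromosome 8 from 34807610 to 34819894. Its only EpiSC peak, 109 bp wide at 34781980 to 34782088, was 25576 bp below the gene and was covered by a 439 bp DE peak. The DE list also had a run of 3 unshared peaks just below the gene, 976, 116 and 74 bp wide at 2805, 1627 and 1092 bp, and a 331 bp peak inside it. Among the 42711 DE peaks, 3 were at least as wide as the 976 bp peak, itself included. EpiSC had no peak within 20 kb of Dusp4. A further DE peak named for Dusp4 in the deposited table lay 64298 bp away and was not counted.

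Dusp6, the cytoplasmic phosphatase of ERK, lies on chromosome 10 from 99263231 to 99267489 and is transcribed from the lower end. It was bound at the same 2 places in both states. The peak over the transcript start was 459 bp wide in EpiSC (99262979 to 99263437) and 388 bp in DE. The peak centred 1360 bp upstream in EpiSC was 162 bp wide there and 305 bp in DE, with the same lower edge in both lists. Only 1.93% of the EpiSC list was as wide as the start peak. The 3 DE-only peaks of 112, 190 and 269 bp were 18515 bp or farther from the gene.

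Etv5, an ETS factor that FGF signals induce, lies on chromosome 16 from 22381313 to 22439570, with its transcript start at the higher end. Its EpiSC peaks were inside the gene at 22402690 to 22403020 (331 bp wide) and 22406187 to 22406410 (224 bp), and 235 bp upstream of the start at 22439701 to 22439910 (210 bp). All were shared, with DE widths of 188, 226 and 288 bp. The DE-only peaks were 98 and 73 bp wide, below and inside the gene, and 243 bp wide 2759 bp upstream. Among the 6 genes with a start region at hand, Dusp6 and Etv5 were those with one at least in part under a peak in both states.

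A larger share of the peaks lay next to the gene than over protein-coding genes at large, although no test was made and the EpiSC count is small. In that background a peak counts once for every gene within 50 kb, so gene-dense regions weigh more. The 6319 EpiSC peaks gave 18511 pairs there and the 42711 DE peaks 83473, while each peak at the 10 genes counted for 1 of them only. How much of the difference comes from this was not tested. Of the EpiSC peaks, 13 of 22 were inside the gene or within 5 kb of it (59.1%, Wilson interval 38.7 to 76.7%), compared with 32.3% of all pairs of a protein-coding gene and an EpiSC peak within 50 kb. Of the DE peaks, 42 of 77 were (54.5%, 43.5 to 65.2%), compared with 37.5%. In DE, 29.9% of peaks lay outside the gene and up to 5 kb from it, against 13.1%, and 24.7% lay inside, against 24.4%. Both values leaned on 1 gene. Fgf8 gave 10 of the 23 DE peaks in the class up to 5 kb, and without it that share was 19.7% (13 of 66). Without Fgfr2 the share inside the gene was 16.4% (10 of 61). In EpiSC, 22.7% of peaks were inside the gene, against 14.3%. Of the 13 EpiSC peaks inside or within 5 kb, 12 were shared, and the exception was the peak at the end of Spry4.

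**Figure D4:**
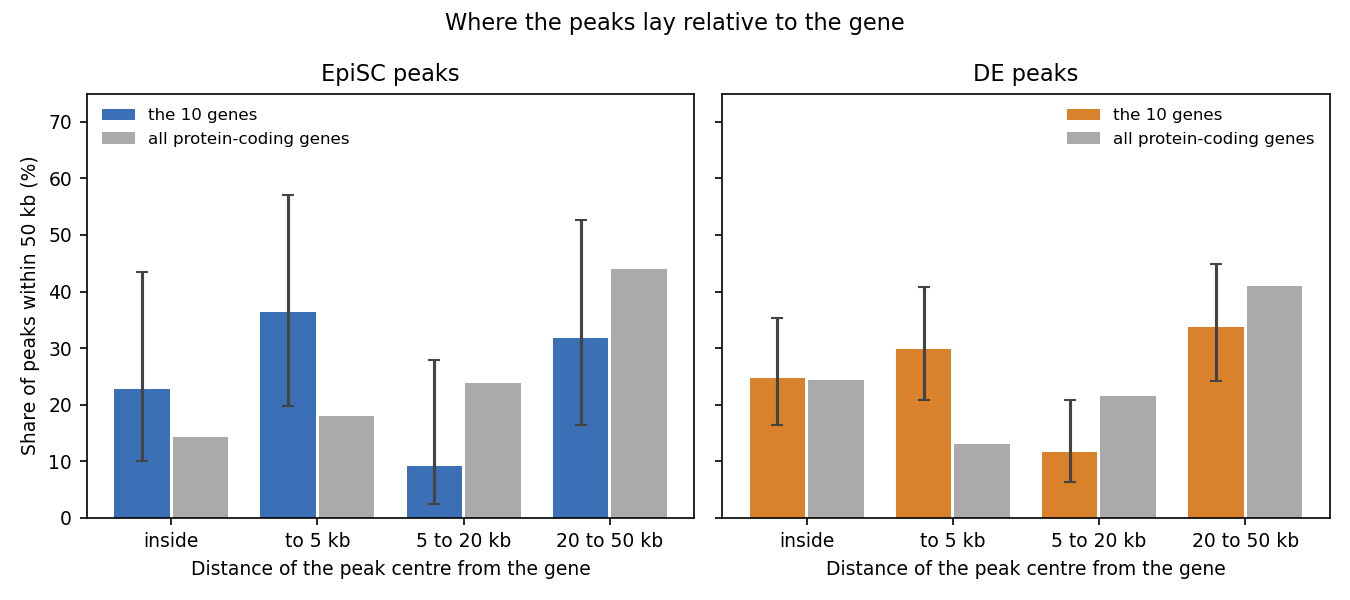
Share of the peaks within 50 kb (vertical axis, %) by distance of the peak centre from the gene (horizontal axis), for EpiSC on the left and DE on the right, with the 10 genes in colour, their 95% Wilson intervals as error bars, and all protein-coding genes in grey. The grey bars count a peak once for every gene within 50 kb of it. The largest excess over the grey bars is in the class up to 5 kb outside the gene, with 36.4% against 18.0% in EpiSC and 29.9% against 13.1% in DE, where it is 19.7% without Fgf8.

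Peaks of the same list also lay near each other. Another DE peak was within 1 kb of 30 of the 77 DE peaks (39.0%, Wilson interval 28.8 to 50.1%), compared with 16.6% of the whole DE list. In EpiSC, 6 of 22 peaks had such a neighbour (27.3%, 13.2 to 48.2%), compared with 10.4%. Neighbours count each other, so the peaks are not independent, as these intervals assume. The 10 genes also had a higher median peak density than protein-coding genes at large, and the shares of the whole lists were not matched for density. The runs with the most peaks were the 6 DE peaks next to Fgf8 and the 6 around the start of Spry2.

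Peak width was the only measure of size in the lists. The median width at the 10 genes was 162 bp in EpiSC (interquartile range 125 to 244 bp) and 167 bp in DE (112 to 243 bp), compared with 141 and 138 bp in the whole lists. The 18 shared DE peaks had a median of 296.5 bp and the 59 DE-only peaks one of 149 bp. In the whole DE list these medians were 224 and 129 bp, so the same order was found there. The widest DE-only peak, at Dusp4 (976 bp), was wider than every shared DE peak at the 10 genes, and the next, at Fgf5 (642 bp), was wider than all but the 672 bp peak of Fgf5.

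Of the 19 shared pairs, 15 had the wider peak in DE (78.9%, Wilson interval 56.7 to 91.5%), compared with 78.7% of 4980 shared pairs in the whole list. The median difference in width, DE minus EpiSC, was 82 bp at the 10 genes and 63 bp over all shared pairs. Among EpiSC peaks with a DE partner of their own, the increase was largest at Dusp4, from 109 to 439 bp. At the distal Fgf5 site the 672 bp DE peak met EpiSC peaks of 191 and 385 bp, which together span 665 bp, so the site itself was about as wide in both lists. At 4 pairs the EpiSC peak was the wider one: the peak inside Fgf5, the Dusp6 start peak, the Etv5 peak at 22402690 to 22403020, and the farthest Spry2 pair with its 1 bp overlap. The Dusp6 start peak and the peak inside Fgf5 were the widest EpiSC peaks at the 10 genes. Of the 19 pairs, 18 overlapped by at least 50% of the shorter peak.

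**Figure D5:**
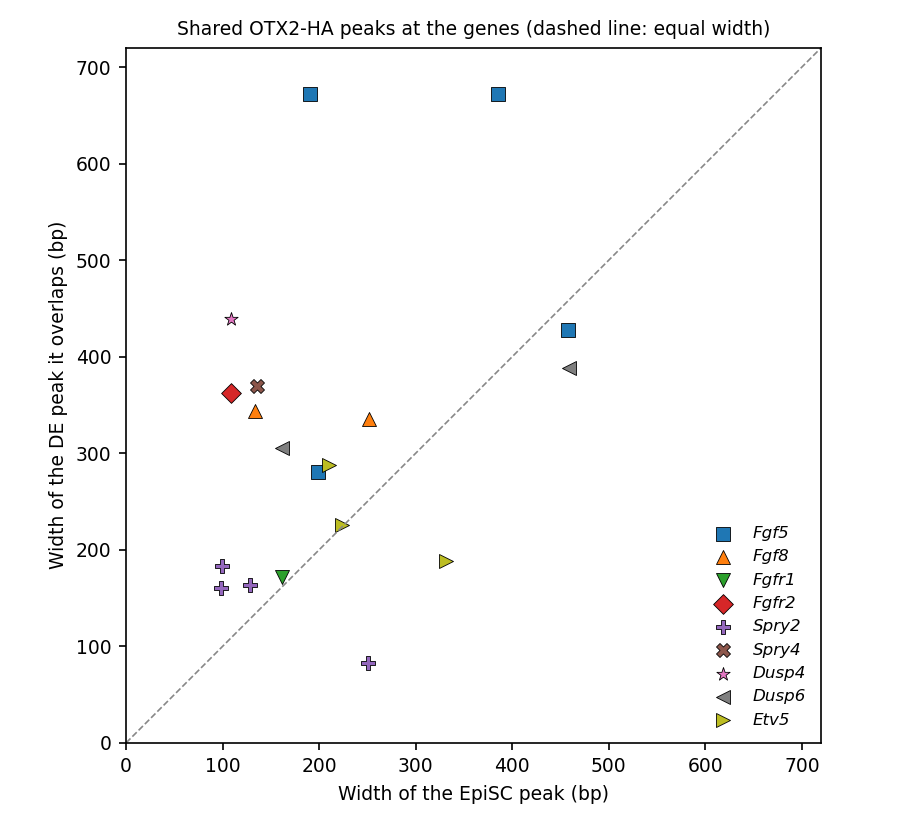
Width of each shared EpiSC peak (horizontal axis, bp) against the width of the DE peak it overlaps most (vertical axis, bp), with 1 marker per EpiSC peak and a shape and colour per gene. Of the 19 markers, 15 lie above the dashed line of equal width, and the 4 below it belong to Fgf5, Dusp6, Etv5 and Spry2.

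The authors' deposited table names 1 nearest gene per peak. It named 1 of the 10 genes for 15 of the 22 EpiSC peaks within 50 kb and for 56 of the 77 DE peaks. Fgf4 and Spry4 were named for no peak in either state, and Fgfr1 for no EpiSC peak and 2 DE peaks. Among protein-coding genes of the RefSeq table, the studied gene was the nearest for 18 EpiSC and 65 DE peaks. The 3 EpiSC peaks without a DE counterpart were all named for another gene in the deposited table, so all 15 peaks named for the studied genes were shared. The DE peak just inside the 50 kb limit was 49837 bp from Fgf4, and those just outside were 50754 bp from Dusp4 and 50987 bp from Fgf5. In EpiSC the limit fell between 33655 bp at Fgf5 and 53134 bp at Fgfr1.

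The control lists held no peak near these genes. The IgG lists of tagged EpiSCs held 202, 149 and 200 peaks in replicates 1 to 3, and the 149 intervals of replicate 2 were all among the 197 distinct intervals of replicate 3. The HA list of DE from the untagged parental line held 14. None of them had a peak within 50 kb of the 10 genes. The IgG peaks closest to any of the genes were 86321 and 86366 bp from Fgf8. Lists this short set little limit on the background at single genes, and no IgG list of DE was used here.

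The wider FGF and ERK pathway was described with 75 other genes. Of these, 45 had an EpiSC peak and 72 a DE peak within 50 kb (60% and 96%), against 40.8% and 82.8% of all protein-coding genes. Of the 75, 68 had more DE than EpiSC peaks, the direction found at 79.2% of all protein-coding genes, and 0 had more EpiSC peaks, against 1.05%. The medians were 1 EpiSC and 5 DE peaks, lower than at the 10 genes and higher than over protein-coding genes. Counts at the 75 genes take any peak within 50 kb. Whether the gene was the nearest was not checked, so peaks counted at the genes named below may lie closer to other genes. Some peaks also count in both sets: the EpiSC peak counted at Fgf4 lay 7755 bp from Fgf15 and 45428 bp from Fgf3, and counted at those genes as well.

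By role, 10 of 19 other FGF ligands had an EpiSC peak, as did 1 of 5 other receptors and co-receptors, 11 of 20 transducers, 10 of 16 other feedback genes and 13 of 15 ERK-responsive transcription factors. A DE peak was found at 17, 5, 20, 15 and 15 of them. Among ligands Fgf21, a liver hormone, had the highest counts, with 8 EpiSC and 13 DE peaks. Fgf9 and Fgf13 had no peak in either state. Among receptors and co-receptors Klb, the co-receptor for that hormone, was the only one with an EpiSC peak (1) and shared the highest DE count of 7 with Fgfr3.

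Among transducers the adaptor Shc1 had 7 EpiSC and 9 DE peaks, and the RAF scaffold Ksr2, a long gene, had no EpiSC and 17 DE peaks. Of the feedback genes, Spred3 had 7 EpiSC and 9 DE peaks, and Il17rd, an inhibitor of FGF receptors, had 4 and 14. Spry3, which the table puts on chromosome X from 101352 to 110912, had none, and that position was not checked against a genome here. Among the transcription factors the AP-1 member Junb had the highest counts, with 6 EpiSC and 11 DE peaks.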

How the data were processed

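Peaks were made by the authors. Per the submitters' processing notes the tools were Bowtie2 2.3.5.1, SAMtools 1.14, Picard 2.26.10, bedtools 2.30 and MACS2 2.2.6, and the build was mm10; the thresholds of peak calling are not given in the sources used here. Per its file name, the untagged-line list came from trimmed reads with duplicates removed and fragments of 20 to 120 bp; whether the HA lists of the tagged line were made likewise is not given. Per the file names the HA peaks were merged over 50 bp. The deposited HA lists hold chromosome, start and end with no score, pooled over both HA samples of a state, and the tables with the nearest gene hold the same intervals (6319 of 6319 in EpiSC and 42711 of 42711 in DE). The label of the EpiSC HA replicate 2 sample also names the DE list, and for IgG in tagged DE the label points to the list of the DE HA samples and to no IgG list. Both were read as slips, and the pooled DE list was taken to stand for the DE HA samples. Columns that mark differentially expressed genes were not used.

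From these intervals, peak centres within 50 kb of each gene were counted, and sharing was called from an overlap of 1 bp or more between the lists. Gene positions and start regions came from RefSeq tables of GRCm38.p6; no genome sequence was used, and for Fgf8, Fgfr1, Spry4 and Dusp4 no start region, so positions there are given by lower and higher coordinate. Intervals are 95% Wilson intervals. Interval functions were tested on simulated data. Named were all 10 genes and, of the other pathway genes, those with the most EpiSC peaks, the most DE peaks or no DE peak in their group. The members and lists were chosen with earlier results of these data known. Alternatives were other distances, other ways to tie peaks to genes, stricter width limits, an equal number of peaks and other definitions of sharing. Python 3.11.15 with pandas 2.3.3 and statsmodels 0.14.6 was used.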

Additional observations from a re-analysis of the deposited data

How the results depend on the processing

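No paired analysis was possible because each state has 1 deposited HA list that joins both replicates, which also means that neither replicate could be left out. Kept here means a count within 1.5 times the reported one, a share or median width inside the reported interval, or a difference of the same sign. Over 10 alternatives, 61 of 73 values that answer a comparison were kept in this sense and 12 moved. Kept counts still changed: EpiSC peaks fell from 22 to 15 and genes with an EpiSC peak from 10 to 8 within 20 kb, and to 15 and 7 by the deposited nearest gene, and genes with a DE peak fell to 7 among the widest DE peaks. Limiting the distance to 20 kb gave 51 DE peaks, and widening it to 100 kb gave 120. Tying peaks by the nearest gene of the deposited table gave 100% of EpiSC peaks shared. Among peaks at least 150 bp wide there were 12 EpiSC and 46 DE peaks, 6 genes had an EpiSC peak, and the median DE width was 228.5 bp. When only the 6319 widest DE peaks were kept, 19 DE peaks were left, of median width 344 bp; 54.5% of EpiSC and 57.9% of DE peaks were shared, and 5 genes had more DE than EpiSC peaks. Under that limit the difference in number, DE minus EpiSC, reversed at Fgf4 (-1), Fgfr1 (-1), Spry2 (-4) and Etv5 (-2). That limit selects on width by construction, and no value over all protein-coding genes is given under it. Of 230 values for single genes, 165 were kept, 61 moved and these 4 reversed. No peak at the 10 genes overlapped a control peak, so leaving such peaks out could change nothing. The 9 values of that alternative are among the 61 and its 30 for single genes among the 165. The limit to peaks at least as wide as the narrowest EpiSC peak (78 bp) could not change an EpiSC count or EpiSC width either. Those values are also among the kept ones. Chosen after seeing the data were leaving out single genes, the limit to the nearest protein-coding gene, every alternative for the count of genes with more DE peaks, and the values for single genes among the widest DE peaks, the 4 reversals included. Depth is unknown, so a site present in 1 list only may lie below the calling limit in the other.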

Other observations

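Several peaks counted at the 10 genes lay at other genes. The 286 bp DE peak at 45747409 to 45747694 on chromosome 19 was 182 bp from Npm3, the neighbour of Fgf8. Beyond Fgf4, the 108 bp DE peak at 144915029 to 144915136 on chromosome 7 was 17 bp from LTO1, and the EpiSC peak between Fgf4 and Fgf15 was 7755 bp from Fgf15. Beyond Fgfr1, DE peaks of 143 and 83 bp lay inside Letm2 and one of 124 bp inside Nsd3. Fgf5, Fgfr2, Spry2 and Dusp6 had no other protein-coding gene within 50 kb, and these 4 genes held 39 of the 77 DE peaks and 11 of the 22 EpiSC peaks.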
